A study of Bos taurus with 27 samples.

Results

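The genes described here are the enzymes and transporters of serine, glycine, folate and methionine metabolism, together called one-carbon metabolism. They were chosen by name as 42 of the 32637 genes in the count table of bovine (Bos taurus) blastocysts, and all 42 were found there. In the study, oocytes were matured in vitro with preovulatory follicular fluid taken from follicles of greater or of lesser maturity, fertilized with semen of the same bull and cultured to the blastocyst stage. RNA was measured in 27 pools, each made from 2 expanding or expanded blastocysts scored as stage 7, quality 1 on the International Embryo Technology Society scale, with libraries read from the 3′ end of the transcript. The labels do not assign the follicular fluid treatment or the fertilization replicate to a pool, so no treatments were compared, and every value below is given over all pools by its lowest, median and highest level. A pool mixes a pair of embryos, which may differ in sex and in the make-up of their cells.

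One-carbon metabolism moves single carbon units, carried on folate, from serine and glycine to the making of purines, thymidylate and methionine. Serine is made from a glycolytic intermediate, mitochondria turn serine and glycine into formate, and the cytosol uses the formate. Methionine is in turn activated to S-adenosylmethionine, the methyl donor for DNA, RNA and histones, and also feeds the transsulfuration pathway to cysteine and the polyamine pathway. Preimplantation embryos use these pathways while they replicate DNA and reset its methylation.

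Total counts per pool ranged from 10517606 to 44253564, with a median of 22293594, and 3 counts corresponded to 0.0678 to 0.285 CPM (counts as a share of the pool's total, scaled to 1e+06) depending on the pool. Pools 9 and 31 stood apart over all genes: among the 12310 genes retained at 1 CPM or more in at least 12 pools, pool 31 held the lowest value of 17.9% and the highest of 9.2%, and pool 9 held the lowest of 11.6%. The label of blastocyst was checked against marker genes. All 5 trophectoderm markers were retained, with a summed level of 15498 to 38676 CPM, although CDX2 had a median of only 3.62 CPM, and all 3 epiblast markers, at 165 to 815 CPM. The hypoblast markers summed to 16.6 to 62.8 CPM, but only PDGFRA was retained and SOX17 had a median of 0. Summed markers of other cells were low beside those of trophectoderm and epiblast. They reached 1.60 to 15.4 CPM for leukocytes (2 of 4 retained) and 9.22 to 37.5 CPM for cumulus and granulosa cells (3 of 4 retained). The cumulus and granulosa sum overlapped that of the hypoblast markers, with medians of 23.7 and 38.6 CPM. Whether such cells were carried over was not tested.

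The blastocysts held transcripts of nearly the whole pathway. Of the 42 members 35 were retained, where 37.7% of all genes in the table were, and 32 of those 35 reached 1 CPM in every pool, against 72.6% of all retained genes. ALDH1L1, the cytosolic enzyme that oxidizes formyl-folate to carbon dioxide, and MAT1A, the liver form of methionine adenosyltransferase, had no count in any pool, which 24.5% of all genes shared. Over all pools a total of 3 counts would be 0.00479 CPM. BHMT2, one of the betaine-homocysteine methyltransferase genes, had 1 count in 1 pool. BHMT itself had counts in 16 pools, reached 1 CPM in 2 of them, and was highest at 2.94 CPM in pool 38.

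The remaining 3 members that were not retained were detected at low levels. GNMT, the glycine methyltransferase that consumes S-adenosylmethionine, had counts in all 27 pools but reached 1 CPM in 8, with a range of 0.275 to 1.74 CPM. SLC19A1, the reduced folate carrier, had counts in 26 pools and reached 1 CPM in 11, with a median of 0.567 CPM and a highest value of 3.19 CPM in pool 31. TDH, threonine dehydrogenase, had counts in 17 pools and reached 1 CPM in 6. Its highest value, 3.26 CPM or 100 counts, was also in pool 31.

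**Figure D1:**
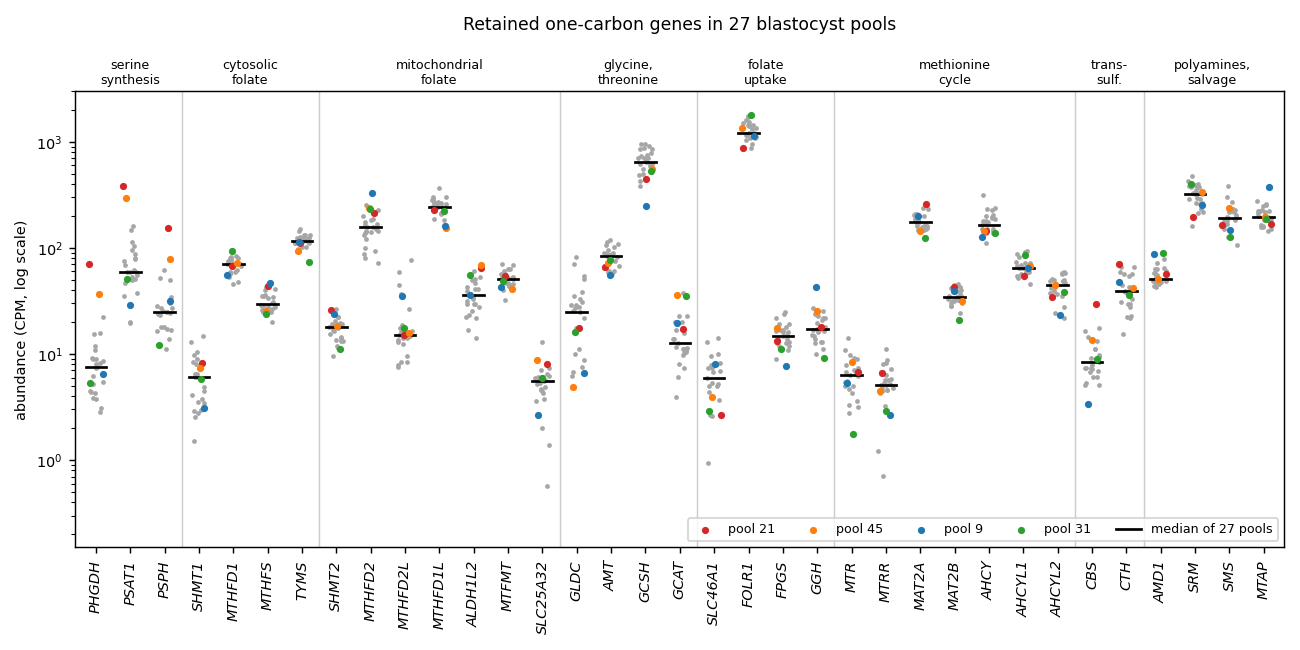
Abundance of the 35 retained members in each of the 27 pools (CPM, log scale), grouped by role; each point is a pool, the bar is the median, and pools 21, 45, 9 and 31 are coloured. Pools 21 and 45 hold the highest and second-highest values of PHGDH, PSAT1 and PSPH, and pool 9 the highest MTHFD2 and the lowest GCSH. Levels of different genes are not per length and are not to be ranked against each other.

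The 3 enzymes of serine synthesis varied widely, and the same pools were at the top for all of them. PHGDH (chr3:23565152-23596343 on ARS-UCD2.0), the first enzyme of the route, ranged from 2.83 CPM in pool 36 to 70.0 CPM in pool 21, with a median of 7.52 CPM. PSAT1 (chr8:54216912-54245206), the aminotransferase of the second step, ranged from 19.6 CPM in pool 35 to 380 CPM in pool 21, with a median of 59.1 CPM. PSPH (chr25:27697176-27727753), the phosphatase that releases serine, ranged from 11.1 CPM in pool 36 to 154 CPM in pool 21, with a median of 24.7 CPM. Pool 21 stood first and pool 45 second in every one of the 3 genes.

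In pool 21 PHGDH was 9.36 times the median of the other 26 pools, PSAT1 6.44 times and PSPH 6.23 times. The 95% counting intervals in that pool, which cover counting error of reads only, were 66.9 to 73.2 CPM for PHGDH, 373 to 387 CPM for PSAT1 and 149 to 159 CPM for PSPH, well clear of the next pool in each case. Pool 45 held 36.8 CPM of PHGDH, 295 CPM of PSAT1 and 78.9 CPM of PSPH. Pool 42 came next after these for PHGDH, at 22.3 CPM, and for PSAT1, at 160 CPM. One other member was raised in pool 21 by this measure: CBS, the first enzyme of transsulfuration, at 29.9 CPM or 3.65 times the median of the other pools. These 4 of 35 members at 2 times the others or more in pool 21 compare with 4.97% of all retained genes, and the members were singled out after their values in that pool were seen.

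Transcripts of ATF4, the transcription factor of the amino acid response, and of several of its known targets were high in the same pool. Pool 21 held 435 CPM of ATF4, where the other pools ranged from 90.3 to 225 CPM. CHAC1, a glutathione-degrading enzyme, was at 22.7 CPM there and at 0.107 to 4.58 CPM elsewhere. ASNS, asparagine synthetase, was at 106 CPM in pool 21, 63.5 CPM in pool 45 and 14.9 CPM in the lowest pool. GARS1, glycyl-tRNA synthetase, was likewise highest in pool 21, at 303 CPM, and second in pool 45, at 210 CPM. TRIB3 was also highest in pool 21, at 30.4 CPM. Further targets stood out less there: DDIT3 was at 33.0 CPM in pool 21 and 32.2 CPM in pool 33. SESN2 was highest in pool 35, at 48.1 CPM. Other members known as ATF4 targets stood less far out in pool 21: MTHFD2 was 1.39 times and SHMT2 1.46 times the median of the other pools. In pool 45 CHAC1 was only 1.78 times and ATF4 1.36 times the median of the others, so the pools did not share the whole pattern.

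The relation of every retained gene to 10 measures of the pools was tested by a two-sided permutation test of the Spearman correlation (rho), with Benjamini-Hochberg adjustment over all retained genes and a call at an adjusted p of 0.05 or less. The first measure was an ATF4-target score, the mean log2(CPM + 1) of ASNS, TRIB3, CHAC1, DDIT3 and SESN2. SLC7A11 and STC2, also listed for it, were not retained. No member was called, nor was any other gene (0% of 12305); before adjustment 4 members and 817 genes (6.64%) reached 0.05, and the edgeR quasi-likelihood test called PHGDH and PSPH, with 0.0894% of all genes, or PHGDH alone without pool 21. PHGDH had the largest rho of the members, 0.73 (permutation p = 3e-05, adjusted p = 0.123), and its Pearson r was 0.84 on the log2 scale (permutation p = 2e-05). Without pools 21 and 45, the farthest from the median score, its Pearson r was 0.66 (permutation p = 0.00032), and leaving out any 1 pool gave a rho of 0.70 to 0.80. The relation of PHGDH thus did not rest on those pools, although it did not pass the adjustment over all genes in the rank test.

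The other serine genes followed the score less closely. PSPH had a rho of 0.60 (permutation p = 0.00113, adjusted p = 0.431), and its Pearson r was 0.75 (permutation p = 8e-05), or 0.43 without pools 21 and 45 (permutation p = 0.0348). PSAT1 had a rho of 0.24 (permutation p = 0.236, adjusted p = 0.888), and its Pearson r was 0.54 (permutation p = 0.00589), and without the same pools its r was 0.03 (permutation p = 0.885). The relation of PSAT1 to the score rested on those 2 pools.

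**Figure D2:**
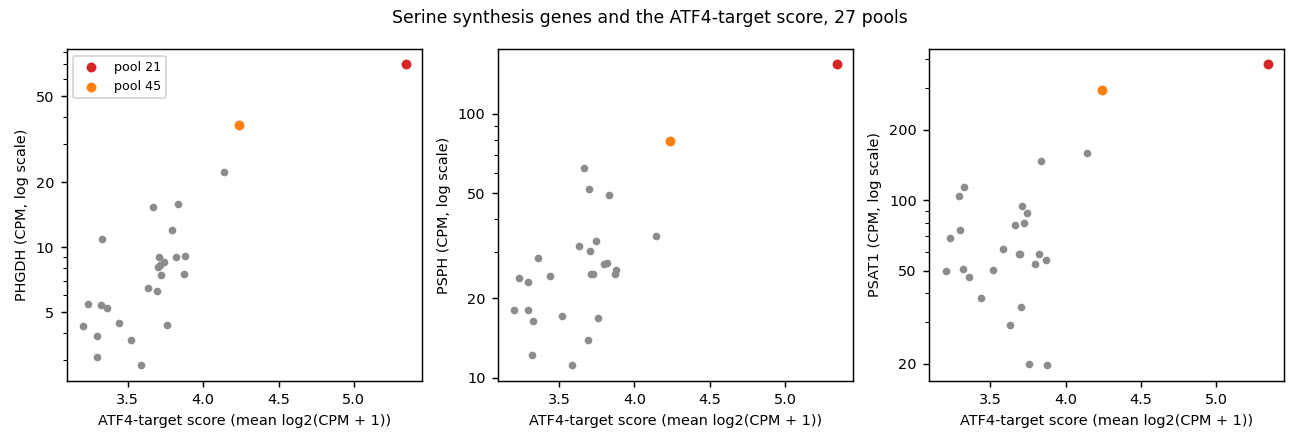
PHGDH, PSPH and PSAT1 (CPM, log scale) against the ATF4-target score (mean log2(CPM + 1) of ASNS, TRIB3, CHAC1, DDIT3 and SESN2); each point is 1 of 27 pools. Pools 21 and 45 lie at the upper right in all panels, PHGDH also rises among the other pools, and PSAT1 shows little rise among them.

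PHGDH was also used as a measure itself, and again no gene was called (0% of 12309), and before adjustment 3 members and 702 genes (5.7%) reached 0.05. The edgeR test called PSAT1 and PSPH, with 0.122% of all genes, or PSPH alone without pool 21. PSPH was the member most like PHGDH, with a rho of 0.74 (permutation p = 4e-05, adjusted p = 0.154), and its Pearson r was 0.85 (permutation p = 1e-05, the smallest that the permutations can give), or 0.67 without pools 21 and 45 (permutation p = 0.00031). PSAT1 had a rho of 0.45 (permutation p = 0.0205, adjusted p = 0.843). Over all retained genes the 3 with the highest rho to PHGDH were GARS1 at 0.79, PSPH at 0.74 and LOC513767 at 0.72.

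The cytosolic folate enzymes were, apart from SHMT1, among the steadier members. SHMT1, which passes the carbon of serine to folate in the cytosol, ranged from 1.53 CPM in pool 14 to 14.8 CPM in pool 5 (median 6.02 CPM), and its upper quartile was 2.32 times the lower. MTHFD1, the trifunctional enzyme that makes formyl- and methylene-folate, ranged from 45.5 to 94.4 CPM (median 70.8 CPM). MTHFS, which returns 5-formyl-folate to the cycle, ranged from 20.2 to 46.6 CPM (median 29.5 CPM). TYMS, thymidylate synthase, had the narrowest quartiles of all members, 1.14-fold apart, with a range of 73.2 CPM in pool 31 to 151 CPM in pool 24 (median 117 CPM). TYMS overlaps ENOSF1 and SHMT1 overlaps SMCR8 in the annotation, and how the counting shared reads between such genes is not given in the sources used here.

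In mitochondria, the enzymes that turn serine into formate were all retained. SHMT2, the mitochondrial serine hydroxymethyltransferase, ranged from 9.55 to 26.4 CPM (median 17.8 CPM). MTHFD2 (chr11:10423161-10475315, overlapping SLC4A5), the dehydrogenase of this route, ranged from 71.4 CPM in pool 32 to 327 CPM in pool 9, with a median of 157 CPM. MTHFD1L, the mitochondrial formyl-folate synthetase, ranged from 154 to 371 CPM (median 243 CPM). Thus MTHFD2 differed between its extreme pools by more than SHMT2 and MTHFD1L did by theirs, and its highest value lay in pool 9.

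MTHFD2L, a close relative of MTHFD2, was even in most pools and high in a few. Its median was 15.1 CPM, but pool 33 held 77.7 CPM and pool 42 held 59.7 CPM. ALDH1L2, the mitochondrial formyl-folate dehydrogenase, ranged from 14.3 CPM in pool 35 to 69.4 CPM in pool 45, with 65.2 CPM in pool 21 (median 35.7 CPM). MTFMT, which formylates the initiator methionyl-tRNA of mitochondria, ranged from 32.4 to 70.5 CPM (median 50.9 CPM) and had one of the 3 narrowest quartile ratios, 1.23. SLC25A32, the mitochondrial folate carrier, ranged from 0.565 CPM in pool 23 to 12.9 CPM in pool 32 (median 5.57 CPM).

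The glycine cleavage system, which splits glycine and passes its carbon to folate in mitochondria, held both the retained member with the widest quartiles and steadier ones. GLDC (chr8:38219953-38308310), the glycine decarboxylase, ranged from 4.89 CPM in pool 45 to 82.1 CPM in pool 35, with a median of 25.2 CPM, and its upper quartile was 3.02 times the lower, the largest ratio of the retained members. AMT (chr22:50693282-50697608), the aminomethyltransferase, ranged from 56.1 CPM in pool 9 to 119 CPM in pool 32 (median 84.2 CPM). GCSH (chr18:7759573-7771600, overlapping LOC112442253), the lipoate-carrying protein of the system, ranged from 249 CPM in pool 9 to 963 CPM in pool 1 (median 643 CPM). GCAT, which splits the product of threonine dehydrogenase into glycine and acetyl-CoA, ranged from 3.93 CPM in pool 13 to 37.4 CPM in pool 14 (median 12.7 CPM). Pools 45 and 31 were near that top, at 36.1 and 35.2 CPM of GCAT.

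The glycine cleavage genes among the members, AMT, GLDC and GCSH, ran opposite to MTHFD2 over the pools. DLD, the component of the system counted here among the other pathway genes, was not called with MTHFD2. With MTHFD2 as the measure, 3 of the 34 other retained members were called, all lower where MTHFD2 was higher, while 2.02% of all genes were called in either direction and 1.42% lower. AMT had a rho of -0.67 (permutation p = 0.00018, adjusted p = 0.0264), and its Pearson r was -0.75 (permutation p = 1e-05, the smallest possible). GLDC had a rho of -0.63 (permutation p = 0.00063, adjusted p = 0.0396), and its Pearson r was -0.63 (permutation p = 0.00037). GCSH had a rho of -0.62 (permutation p = 0.0006, adjusted p = 0.0391), and its Pearson r was -0.66 (permutation p = 0.00015). These levels come from the same libraries and share their total counts.

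The direction of these relations held in every alternative, but the calls did not. Without pool 9 none of the 3 was called, and none was without pools 9 and 32, the farthest from the median of MTHFD2, where the Pearson r was -0.66 for AMT (permutation p = 0.00038), -0.53 for GLDC (permutation p = 0.00685) and -0.51 for GCSH (permutation p = 0.0088). The rank test then called fewer of all genes too, 0.406% without pool 9 and 0.106% without pools 9 and 32, against 2.02% over all pools. With TMM scaling GLDC alone was called (adjusted permutation p = 0.0446), beside 1.80% of all genes in either direction and 0.617% lower. Leaving out any 1 pool gave a rho of -0.72 to -0.63 for AMT. By edgeR AMT and GLDC were called but GCSH was not, and ALDH1L2 and MTAP were called as higher, with 3.18% of all genes. Over all retained genes, the 3 with the highest rho to MTHFD2 were LOC101905399 at 0.85, HMGCS1, a cholesterol synthesis enzyme, at 0.84 and SEPTIN10 at 0.83.

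**Figure D3:**
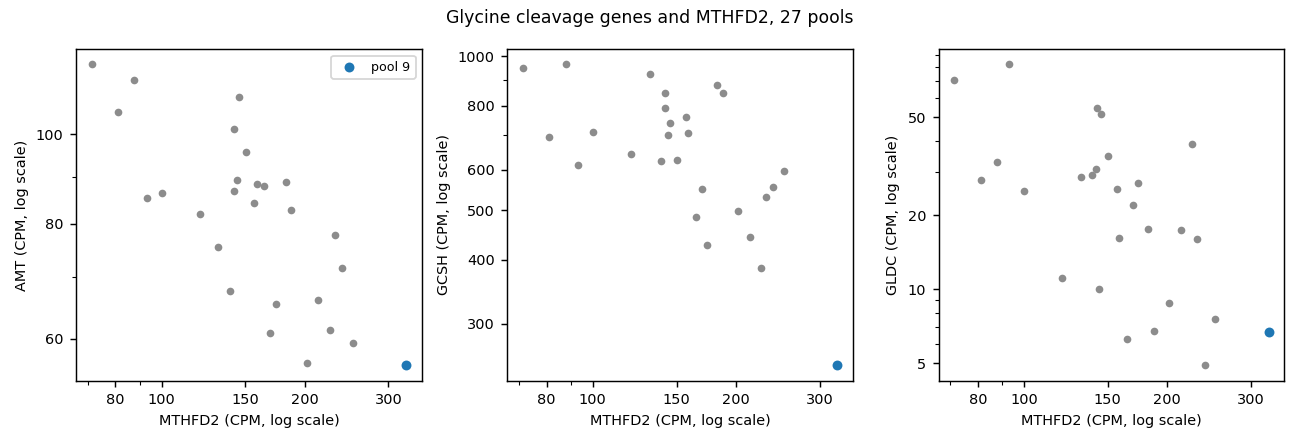
AMT, GCSH and GLDC (CPM, log scale) against MTHFD2 (CPM, log scale); each point is 1 of 27 pools. All 3 fall as MTHFD2 rises, and pool 9 combines the highest MTHFD2 with the lowest AMT and GCSH.

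With GLDC as the measure, 1 of the 34 other members was called, MTHFD2 (rho -0.63, permutation p = 0.00073, adjusted p = 0.0456), where 1.67% of all genes were called and 0.471% lower. This is the same pair as above, tested again over another set of genes. The call of MTHFD2 held by Pearson correlation, by edgeR and without pool 21, and was lost with TMM (adjusted permutation p = 0.064), with DESeq2 size factors, over all genes and without pool 9. Without pools 14 and 45 it was lost as well, and FPGS was called instead, as higher with GLDC (rho 0.67, adjusted permutation p = 0.0492), beside 1.02% of all genes. GCAT came next with a rho of -0.60 (permutation p = 0.0011, adjusted p = 0.0539), and was called by Pearson correlation and by edgeR (adjusted p = 0.0159), also without pool 9 or pool 21. Pool 45 held the lowest GLDC and the second-highest GCAT. The 3 genes most like GLDC were ADM, which encodes adrenomedullin, at a rho of 0.84, RELL1 at 0.82 and USP6NL at 0.81.

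Among the genes of folate uptake and retention, FOLR1 (chr15:51793458-51804318), the folate receptor that takes up folate by endocytosis, ranged from 867 CPM in pool 21 to 1807 CPM in pool 31 (median 1221 CPM). Every pool thus held abundant FOLR1 reads. SLC46A1, the proton-coupled folate transporter, ranged from 0.939 CPM in pool 42 to 14.3 CPM in pool 19 (median 5.89 CPM), with quartiles 2.08-fold apart. FPGS, which adds the glutamates that keep folate in the cell, ranged from 7.71 CPM in pool 9 to 24.8 CPM in pool 28 (median 14.8 CPM). GGH, the hydrolase that removes those glutamates, was highest where FPGS was lowest, at 43.0 CPM in pool 9, and otherwise ran from 9.19 to 27.4 CPM (median of all pools 17.1 CPM).

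FOLR1 was the only member called with the hypoblast score, which rests here on PDGFRA and HNF4A, since GATA4, SOX17 and FOXA2 were not retained. The call stood at 1 of 35 members beside 1.12% of all genes in either direction and 0.528% higher. FOLR1 had a rho of 0.66 (permutation p = 0.00027, adjusted p = 0.0361), and its Pearson r was 0.61 (permutation p = 0.00065). Without pools 9 and 35, the farthest from the median score, the Pearson r was 0.59 (permutation p = 0.00199) and FOLR1 was not called. The rank test called 0.0406% of all genes there. Without pool 21, which held the lowest FOLR1, the permutation test called no member, beside 1.03% of all genes. By contrast, edgeR called FOLR1 over all pools (adjusted p = 0.0384), without pool 21 (0.0473) and without pool 9 (0.0395). In pooled embryos, fewer cells of a type and less RNA per cell cannot be told apart.

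The epiblast score was formed by NANOG, SOX2 and PRDM14, since FGF4 was not retained. With it no gene was called (0% of 12307), while 5 members and 884 genes (7.18%) reached 0.05 before adjustment. AHCYL2, a homolog of S-adenosylhomocysteine hydrolase, had the largest rho, 0.70 (permutation p = 0.0001, adjusted p = 0.123), and its Pearson r was 0.70 (permutation p = 5e-05), or 0.65 without pools 21 and 35 (permutation p = 0.00043). AHCYL2 was the member that edgeR called for this score, with 0.114% of all genes (adjusted p = 0.0492), but not without pool 21 (0.0633) or without pool 9 (0.0885), and its adjusted p ranged from 0.0308 to 0.469 over the other settings of the correlation test. AHCYL2 overlaps 3 other loci in the annotation.

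The methionine cycle genes held several of the steadier members. MAT2A, the enzyme that makes S-adenosylmethionine outside the liver, ranged from 124 CPM in pool 31 to 262 CPM in pool 21 (median 176 CPM). MAT2B, its regulatory subunit, ranged from 21.0 CPM, also in pool 31, to 45.3 CPM in pool 32 (median 34.1 CPM). AHCY, which clears the S-adenosylhomocysteine left by methyl transfer, ranged from 111 CPM in pool 15 to 316 CPM in pool 28 (median 163 CPM). Catalytic and regulatory subunit thus shared their lowest pool, in which 17.9% of all genes were lowest.

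The AHCY homologs AHCYL1 and AHCYL2 ranged from 45.6 to 94.1 CPM (median 65.4 CPM) and from 22.0 to 58.8 CPM (median 44.8 CPM). AHCYL1 had the second-narrowest quartile ratio of the members, 1.22. MTR, methionine synthase, ranged from 1.76 CPM in pool 31 to 14.1 CPM in pool 14 (median 6.29 CPM). MTRR, the reductase that keeps methionine synthase active, ranged from 0.713 CPM in pool 14 to 11.0 CPM in pool 38 (median 5.08 CPM). Pool 14 thus held the highest MTR and the lowest MTRR.

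Both transsulfuration enzymes were highest in pool 21. CBS, which joins homocysteine to serine, ranged from 3.37 CPM in pool 9 to 29.9 CPM (median 8.45 CPM). CTH, which releases cysteine, ranged from 15.5 CPM in pool 13 to 70.1 CPM (median 39.5 CPM). In all, 6 of 35 members (PHGDH, PSAT1, PSPH, CBS, CTH and MAT2A) had their highest value in pool 21, as did 5.54% of all retained genes, and FOLR1 had its lowest there, as did 4.76%.

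The polyamine and salvage genes had narrow quartiles. AMD1, which makes the aminopropyl donor from S-adenosylmethionine, ranged from 42.8 to 89.7 CPM (median 51.1 CPM). SRM, spermidine synthase, ranged from 161 to 476 CPM (median 323 CPM). SMS (chrX:121317045-121367225), spermine synthase and the X-linked member, ranged from 106 CPM in pool 28 to 381 CPM in pool 38 (median 192 CPM). MTAP (chr8:22189962-22236792), which salvages methionine from the by-product of polyamine synthesis, ranged from 144 CPM in pool 36 to 374 CPM in pool 9 (median 197 CPM). None of these 4 had quartiles 1.5-fold or more apart.

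Interferon tau, the signal by which the ruminant trophectoderm announces pregnancy, served as a measure by the summed level of its 4 genes, which ran from 7.21 CPM in pool 36 to 597 CPM in pool 9 (median 41.9 CPM). Of the 35 members 2 were called, against 1.36% of all genes: 1 lower, as were 0.357% of genes, and 1 higher, as were 0.999%. GCSH was lower where interferon tau was higher (rho -0.72, permutation p = 6e-05, adjusted p = 0.0179), with a Pearson r of -0.76 (permutation p = 1e-05, the smallest possible). MTAP was higher with interferon tau (rho 0.69, permutation p = 0.00014, adjusted p = 0.0253), with a Pearson r of 0.73 (permutation p = 3e-05). IFNT3 (chr8:22582520-22583580) and IFNT2 (chr8:22608434-22609746), both part of this measure, lie in the same region as MTAP (chr8:22189962-22236792). The part of this shared position in the relation was not tested. AMT missed the threshold (rho -0.63, permutation p = 0.00074, adjusted p = 0.0517), but was called with TMM (adjusted permutation p = 0.0246), with DESeq2 size factors, by Pearson correlation and by edgeR (adjusted p = 0.0208). MTAP was not called with TMM (adjusted permutation p = 0.0572).

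Pool 9 held the highest interferon tau, the highest MTAP and the lowest GCSH. Without pool 9, 1 of the 2 members was called, GCSH, beside 0.447% of all genes. Without pools 9 and 14, the farthest from the median, neither was called, with a Pearson r of -0.65 for GCSH (permutation p = 0.00052) and 0.62 for MTAP (permutation p = 0.001). The rank test called 0.447% of all genes there as well. Leaving out any 1 pool gave a rho of -0.77 to -0.68 for GCSH and 0.65 to 0.76 for MTAP.

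The pools with unusual levels differed in which members were affected. In pool 9, 4 of 35 members had their highest value (MTHFS, MTHFD2, GGH and MTAP), as did 7.37% of all retained genes, and 4 their lowest (AMT, GCSH, FPGS and CBS), as did 11.6%. MTHFD2, MTHFD2L and GGH, 3 of 35, were at 2 times the median of the other pools or more there (7.45% of genes), and PSAT1, SLC25A32, GLDC, GCSH and CBS, 5 of 35, at 0.5 times or less (14.2%). GCSH was at 0.37 and GLDC at 0.26 times that median. In pool 45, 4 of 35 members were at 2 times the others or more (4.75%), the serine genes and GCAT, and GLDC alone was at 0.5 times or less (9.42%).

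Pools 36 and 31 were low in other members. In pool 36, PHGDH, PSPH, SHMT1, MTHFD2L, GLDC and SLC46A1, 6 of 35, were at 0.5 times the median of the others or less, where 8.81% of genes were. In pool 31, 3 of 35 were (PSPH, SLC46A1 and MTR), beside 21.9% of genes, and GCAT alone was at 2 times or more (6.92%). SLC46A1 was also the member at 0.5 times or less in pool 21 (9.51%). These pools were likewise singled out after their values were seen.

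**Figure D4:**
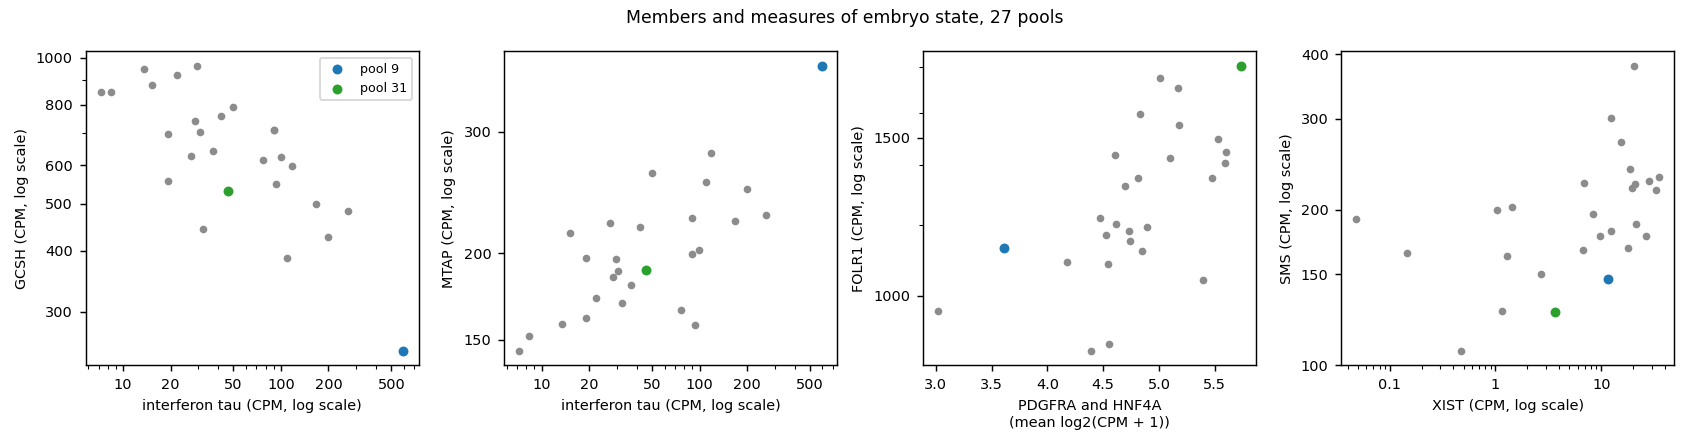
From left, GCSH and MTAP (CPM, log scale) against the summed interferon tau genes (CPM, log scale), FOLR1 (CPM, log scale) against the mean log2(CPM + 1) of PDGFRA and HNF4A, and SMS (CPM, log scale) against XIST (CPM, log scale); each point is 1 of 27 pools. Pool 9 lies at the end of both interferon tau panels, and pool 31 holds the highest FOLR1.

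With the S-phase score, the mean of 12 genes of DNA replication and proliferation, 1 of 35 members was called beside 0.48% of all genes in either direction and 0.293% higher. This was AMT (rho 0.67, permutation p = 0.00018, adjusted p = 0.0452), with a Pearson r of 0.72 (permutation p = 1e-05, the smallest possible) that was 0.65 without pools 32 and 41 (permutation p = 0.00048). TYMS, which serves DNA synthesis, was not called. Some measures were related to each other: the S-phase score had a rho of -0.52 with interferon tau, -0.46 with MTHFD2 and 0.59 with the hypoblast score. Calls of the same members with these measures are thus not independent results. The call of AMT was lost without pool 9, without pool 21 and without pools 32 and 41. In these settings the rank test called 0.0325%, 0.35% and 0% of all genes. The edgeR test called AMT over all pools and without pool 9 or pool 21, and TMM scaling called AMT, GCSH and FOLR1, with 4.60% of all genes.

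The total count of a pool was not related to any gene (0% of 12310 called), and before adjustment 1 member and 415 genes (3.37%) reached 0.05, with none called by edgeR (0%). That member was MTHFD1L (rho 0.57, permutation p = 0.00249, adjusted p = 1). Its Pearson r was 0.46 (permutation p = 0.0149), and 0.38 without pools 23 and 28 (permutation p = 0.0632).

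XIST, the RNA that silences an X chromosome, was the last measure, and no member was called with it although 4.8% of all genes were; before adjustment 10 members reached 0.05, as did 19.5% of genes. The edgeR test also called no member, with 4.54% of all genes. Without pool 21, FOLR1 and SRM were called as lower with XIST over the other pools (rho -0.60 and -0.59, adjusted permutation p = 0.0364 and 0.0404). Of all genes 5.31% were called there in either direction and 1.19% lower. Without that pool edgeR called FOLR1, SRM and GCSH, with 4.97% of all genes. The pools fell into clusters by the summed level of their Y-linked genes, 18 above and 9 below 10 CPM, so SMS, the member with the largest rho, was taken within each cluster. Its rho with XIST was 0.38 in the 18 pools (permutation p = 0.114) and -0.52 in the 9 (permutation p = 0.162), and neither passed the test. The rho of FOLR1 with XIST was -0.12 in the 18 pools (permutation p = 0.646) and -0.53 in the 9 (permutation p = 0.147). That of SRM was -0.17 (permutation p = 0.493) and 0.22 (permutation p = 0.581), so its direction differed between the clusters. GCSH had a rho of -0.42 (permutation p = 0.0816) and -0.83 (permutation p = 0.00818, adjusted p = 0.547). No member was called within either cluster, nor was any other gene (0% of 12309 in each).

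The spread over the pools is described by role, and a difference between roles was not tested. The upper quartile was at least 1.5 times the lower in 12 of 35 members, against 50.8% of all retained genes, and the median ratio was 1.40 for members and 1.51 for all genes. The members' median level was 39.5 CPM, where that of all retained genes was 14.4 CPM, and the part of level in the ratio was not tested. By role, the ratio reached 1.5 in 3 of 3 serine synthesis and 2 of 2 transsulfuration genes, 2 of 4 glycine and threonine genes, 2 of 4 of folate uptake, 1 of 4 cytosolic and 1 of 7 mitochondrial folate genes, 1 of 7 methionine cycle genes and 0 of 4 polyamine genes. Among members with a median of at least 5 CPM, the widest quartiles were those of GLDC at 3.02, SHMT1 at 2.32, SLC46A1 at 2.08, PHGDH at 2.07 and GCAT at 1.85. The chi-square per degree of freedom against counting error, which grows with the level of a gene, had a median of 87.7 in members and 35.2 over all retained genes.

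The correlations of members with each other are given as a description, since they share libraries. Of 595 pairs, 15 had a rho of at least 0.5 and 11 a rho of -0.5 or lower, with a median of 0.03. The highest were PHGDH with PSPH at 0.74 and AMT with GCSH at 0.71, in each case enzymes of one route. The lowest were GCAT with MTFMT at -0.73 and AMT with MTHFD2 at -0.67.

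**Figure D5:**
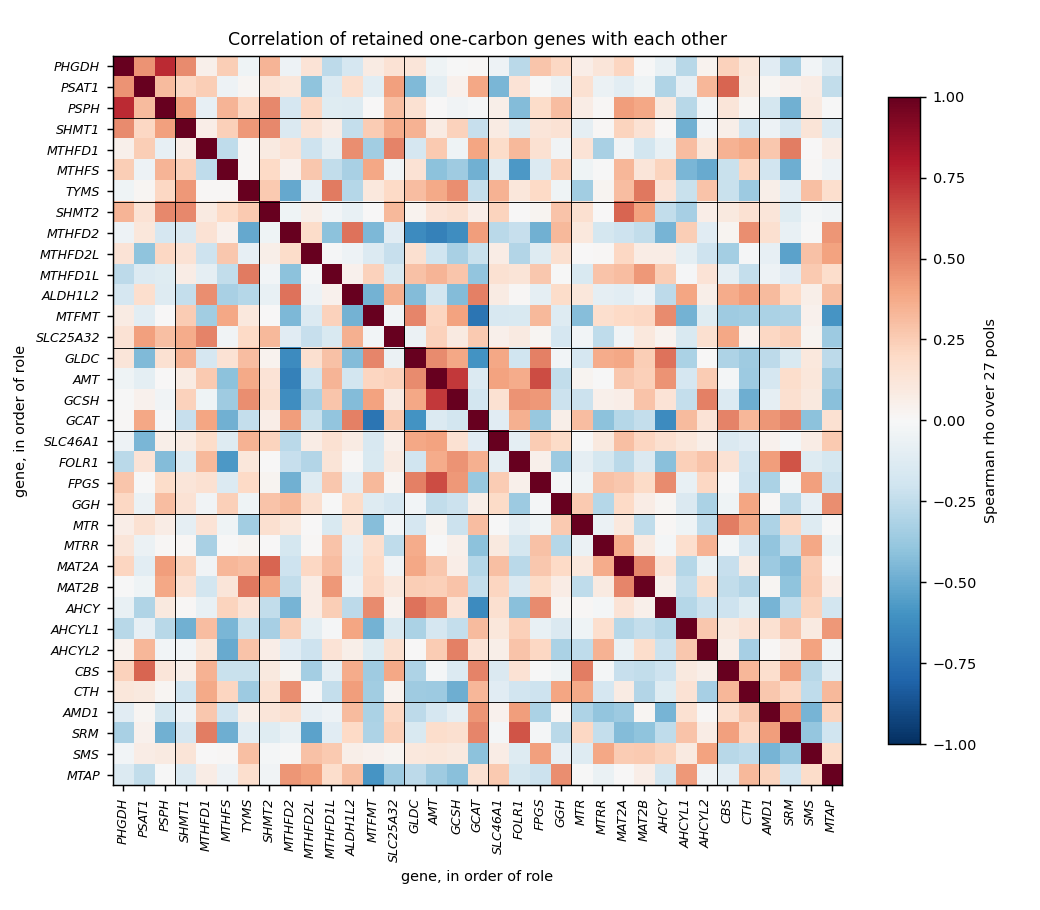
Spearman rho over 27 pools between each pair of the 35 retained members, in order of role with lines between roles; red is positive and blue negative. AMT, GCSH and GLDC are blue against MTHFD2, and PHGDH and PSPH are red against each other at 0.74.

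Other genes of these pathways were counted from a list of 32, of which 26 were retained. None was called with the total count, interferon tau, the epiblast, hypoblast, ATF4-target or S-phase scores or PHGDH, with 0 to 4 of the 26 reaching 0.05 before adjustment in each of these permutation tests. With MTHFD2, 1 of 26 was called, MMACHC, which processes vitamin B12 (rho -0.64, permutation p = 0.0004, adjusted p = 0.034), beside 2.02% of all genes. With GLDC, 2 of 26 were called, beside 1.67%: MMACHC again (rho 0.69, permutation p = 8e-05, adjusted p = 0.0186) and AZIN1, which protects ornithine decarboxylase from its inhibitor (rho 0.67, permutation p = 0.00018, adjusted p = 0.0255). The MMACHC call with MTHFD2 was lost without pool 9, and neither MMACHC nor AZIN1 was called with GLDC under TMM scaling.

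With XIST, 3 of the 26 were called over all pools, beside 4.8% of all genes, and values are given within the clusters. ADK, adenosine kinase, had a rho of -0.47 in the 18 pools of high Y-linked level (permutation p = 0.048) and -0.27 in the 9 of low level (permutation p = 0.492). SAT1, the X-linked polyamine acetyltransferase, had a rho of 0.57 (permutation p = 0.014) and 0.20 (permutation p = 0.614). SMOX, spermine oxidase, had a rho of 0.50 (permutation p = 0.038) and 0.53 (permutation p = 0.146). Adjusted over all genes, none of the 3 was called within a cluster, where no gene at all was called (0% of 12309).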

How the data were processed

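The authors deposited raw counts of reads per gene for 27 pools: forward reads of 3′ libraries (SMART-Seq v4 3′ DE, Nextera XT) were trimmed with fastp, aligned by STAR to the ARS-UCD2.0 genome, and assigned to genes by featureCounts; tool versions are not given in the sources used here. No normalized values were used. From these counts, CPM was computed from column totals (10517606 to 44253564), a gene was kept if 12 or more pools reached 1 CPM, and each kept gene was related to 10 measures by a two-sided permutation test (100000 permutations) of the Spearman correlation, Benjamini-Hochberg adjusted over all retained genes, with Pearson correlations of log2(CPM + 1) beside it (Python 3.11.15, numpy 2.4.6, scipy 1.17.1, pandas 2.3.3). Genes that make up a measure were left out of its test. The alternatives were TMM and DESeq2 1.42.0 size factors, Pearson correlation, an edgeR 4.0.16 quasi-likelihood test with the measure as covariate (R 4.3.3), no filter, and leaving out pools. Tested on simulated data, the Spearman test recovered 200 of 200 changed genes with 14 false calls among 12310. The simulation drew genes and pools independently, with a fixed dispersion and a fixed size of slope for the changed genes. It therefore does not give the power or the error rate in these data. Positions and overlaps come from RefSeq (ARS-UCD2.0), where 42 of 42 members were matched.

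All members were reported by role, with members called and, where none was called, the one with the largest rho, named for each measure, along with the 5 widest (median at least 5 CPM) and 3 narrowest quartile ratios and the 3 genes most like PHGDH, MTHFD2 and GLDC; pools and other members were singled out after their values were seen. The members, lists and measures were chosen with earlier results of these data known. Per the study's methods the pools came from a few shared fertilization replicates and both treatments, so pools of one replicate or treatment may be alike; the permutation tests treat all pools as exchangeable, and their p-values may then be too small. Counts are reads, not molecules, so counting intervals (exact binomial, 95%) are lower limits of the error. No 2 pools agreed within sampling noise (lowest chi-square per degree of freedom of 351 pairs, 23.9).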

Additional observations from a re-analysis of the deposited data

How the results depend on the processing

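Among the correlations of members with a measure given above, those of SMS and SRM with XIST reversed, from a rho of 0.56 and -0.44 over all pools to -0.52 and 0.22 within the 9 pools of low Y-linked level, and passed the test in neither. Some correlations not given above changed sign too. With XIST, AMD1 and GCAT had a rho of -0.49 and -0.46 over all pools. Their highest correlation among the alternatives was 0.45 and 0.20. The levels and the number of retained members were stable: 37 at 0.5 CPM, 35 at 2 CPM, 40 without a filter and 35 with TMM. The counts of members called moved more, and so did the shares of all genes called, given below. For interferon tau, 2 members were called, 3 with DESeq2 size factors, by Pearson correlation and by edgeR (GCSH, MTAP and AMT), 2 with TMM (GCSH and AMT), but 1 without pool 9 (also by edgeR) and 0 without the 2 farthest pools, by rank or Pearson correlation. For the epiblast score, 0 became 1 with TMM, with DESeq2 size factors and by edgeR, but 0 by edgeR without pool 9 or pool 21. For the hypoblast score, 1 became 0 by Pearson correlation, without the 2 farthest pools (both correlations), over all genes with any count and without pool 21, and 2 by edgeR without pool 9. For the ATF4-target score, 0 became 2 by edgeR, 1 by edgeR without pool 21 and 2 by edgeR without pool 9. For the S-phase score, 1 became 3 with TMM and with DESeq2 size factors, 2 by Pearson correlation, and 0 without pool 9, without pool 21, without the 2 farthest pools (both correlations) and over all genes. For XIST, 0 became 2 without pool 21, 3 by edgeR without pool 21 and 1 by edgeR without pool 9. For PHGDH, 0 became 1 by Pearson correlation, 2 by edgeR, 1 by edgeR without pool 21 and 2 by edgeR without pool 9. For MTHFD2, 3 became 1 with TMM, with DESeq2 size factors and over all genes, 0 without pool 9 and without the 2 farthest pools (both correlations), and 1 by edgeR without pool 9. For GLDC, 1 became 0 with TMM, with DESeq2 size factors, without pool 9 and over all genes, and 2 by Pearson correlation, by edgeR and by edgeR without pool 21; it stayed 1 without the 2 farthest pools, but as FPGS, and by edgeR without pool 9, as GCAT. The cause of these moves was not tested. The share of all genes called for the S-phase score was 0.48%, 4.60% with TMM, 0.0325% without pool 9 and 0% by rank without the 2 farthest pools. Over the alternatives of the correlation test the share ranged from 0.292% to 1.93% for interferon tau. It was 0.0406% to 2.01% for the hypoblast score and 0.106% to 4.06% for MTHFD2. For GLDC it was 0.288% to 2.03%, and for XIST 0% to 5.31%. Leaving out pool 21, the Pearson fits without the farthest pools, the fits within clusters and the edgeR fits without a pool were chosen after seeing the data. CPM per kilobase of transcript was not run, since no transcript lengths were used here. No paired analysis was possible because the pools carry no treatment or replicate number in the labels. The depth allowed no level under 0.0678 to 0.285 CPM to be told from 0 in a single pool.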
